A study of Homo sapiens with 6 samples.

Results

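In the small RNA count table of MDA-MB-231 cells, the rows described here are hsa-miR-7706, hsa-miR-659-5p, hsa-miR-4661-5p, hsa-miR-3158-5p, hsa-miR-3158-3p, hsa-miR-582-3p and hsa-miR-582-5p. They are 7 of the 1582 miRNAs listed. They were chosen by name for large rises in RARαS77A cells, together with the other arm of a precursor where it was measured, so their change between the groups is given as a description. The calls of the fit across all miRNAs are named for them, but no p-value is given and nothing is supported with those calls. Their numbers were taken as a sign of late annotation, and 4 of the 7 members have numbers of 3000 or above. The arms of miR-582 and miR-659-5p, 3 members, do not. One member, miR-582-5p, did not rise.

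The MDA-MB-231 line derives from a breast cancer without estrogen receptor, progesterone receptor or HER2 amplification and serves as a model of triple negative breast cancer. RARα is a nuclear receptor that binds retinoic acid and regulates transcription, and in RARαS77A a serine is replaced by alanine and cannot be phosphorylated. Small RNA was sequenced from 3 libraries of MDA-MB-231 cells given RARαS77A and 3 libraries of the same cells, not transfected, as control. The design text names lentivirus for RARαS77A, while other sources used here call the cells transfected. No empty vector was part of the comparison, so the delivery of RARαS77A and the mutant receptor cannot be told apart. The agent is an overexpressed receptor on top of whatever RARα the line itself makes. The labels do not state that the 3 replicates of a group came from separate cultures, so the spread between them, against which the calls below were made, may be technical.

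A miRNA is cut from a hairpin precursor. The hairpin has 2 arms, and each can give a mature strand, named 5p or 3p after its side. Usually 1 arm, the guide, is loaded into an Argonaute protein and kept, while the other, the passenger, is degraded. A guide pairs with target mRNAs mainly through its seed, bases 2 to 8 from the 5′ end, and lowers their stability and translation. Many hairpins lie in introns of protein-coding genes and are transcribed with the host gene, and others lie in exons or have promoters of their own.

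The mature sequences are shown because the arms of 1 precursor have different seeds, so a shift between arms changes which seed is present. Mature sequences of 6 of the 7 members were found in the RefSeq table for GRCh38.p14, and hsa-miR-4661-5p is named only. Capitals mark the seed.
hsa-miR-7706: uGAAGCGCcugugcucugccgaga
hsa-miR-659-5p: aGGACCUUcccugaaccaagga
hsa-miR-3158-5p: cCUGCAGAgaggaagcccuuc
hsa-miR-3158-3p: aAGGGCUUccucucugcaggac
hsa-miR-582-3p: uAACUGGUugaacaacugaacc
hsa-miR-582-5p: uUACAGUUguucaaccaguuacu
The 6 seeds all differ, and 0 other mature sequences among the 2370 names in the table carry any of them. The members are thus not a seed family. The mature lengths run from 21 to 24 bases and the GC content from 34.8% in miR-582-5p to 62.5% in miR-7706.

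The precursors of the member pairs are shown because their structure bears on how the arms were counted. Capitals mark the mature strands, the 5p arm first.
MIR582: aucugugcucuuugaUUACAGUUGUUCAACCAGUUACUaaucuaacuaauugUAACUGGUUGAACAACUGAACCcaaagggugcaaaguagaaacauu
MIR3158-1: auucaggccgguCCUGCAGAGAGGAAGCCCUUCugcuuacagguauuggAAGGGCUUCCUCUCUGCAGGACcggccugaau
MIR3158-2: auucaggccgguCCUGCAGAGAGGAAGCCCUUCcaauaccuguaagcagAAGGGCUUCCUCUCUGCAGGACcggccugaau
MIR582 has 98 bases on the minus strand at chr5:59703606-59703703 in GRCh38, with 14 bases between the arms. MIR3158-1 and MIR3158-2, with 81 bases each, lie at the same place, chr10:101601417-101601497, on the plus and the minus strand. They are exact reverse complements of each other, and read 5′ to 3′ they are identical at 70 of 81 positions and carry the same mature strands. The plus strand's miR-3158-5p (101601429 to 101601449) overlaps the minus strand's miR-3158-3p (101601427 to 101601448) by 20 bases, and the other arms (101601466 to 101601487 and 101601465 to 101601485) overlap by 20 bases as well. A read of either arm therefore has 1 match on each strand, in 1 precursor each, and the arms of miR-3158 have a complementary run of 20 bases. Among the 105 arm pairs with both arms tested and both sequences at hand, 0 had a longer run, and the median run was 7 bases. For miR-582 the run was 18 bases. Folded with RNAfold, MIR3158-1 reached -0.910 kcal/mol per base, the 9th lowest of 1560 precursors, and MIR3158-2 reached -0.873, the 14th lowest. MIR582, at -0.449, was close to the median of -0.452, as was MIR7706 at -0.427.

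Libraries held between 9019266 and 11338580 counts. The counts are relative and were scaled by TMM, whose factors lay between 1.15 and 1.30 in controls and between 0.811 and 0.830 in RARαS77A libraries, so a fold change here is larger by this gap than one from plain shares. Levels are given as CPM after this scaling, the count as a share of the scaled library. All 4 miRNAs taken as typical of MDA-MB-231 cells were present, at 60.7% to 70.6% of the counts of a library. Of the lists for other cells, the summed miRNAs of pluripotent stem cells moved with the groups and with 1 control, at 0.160, 0.0680 and 347 CPM in control replicates 1, 2 and 3 and from 340.0 to 355 CPM in RARαS77A libraries. All 8 of these miRNAs were above 0 in at least 1 library. Other controls stood apart on other lists. Muscle miRNAs summed to 82.2 CPM in control replicate 1 and 5.51 to 8.57 elsewhere, the endocrine miRNA was at 59.1 CPM in control replicate 2 and 1.52 to 6.31 elsewhere, and the liver miRNA was at 6.73 CPM in control replicate 2 and 37.4 to 63.5 elsewhere. The part of these miRNAs in the results was not tested. Fewer cells making a miRNA and less of it per cell cannot be told apart in these bulk samples.

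The rises were large and the groups of libraries stood apart. For 6 members all 3 RARαS77A libraries lay above all 3 controls, and for 1 they all lay below. In the fit across all miRNAs (edgeR's quasi-likelihood test), 6 of the 7 were among those called higher and 0 among those called lower. Over the 506 miRNAs tested, 23.3% were called higher and 21.1% lower, and 31.0% had all RARαS77A libraries above and 27.1% below all controls. As the members were chosen on this contrast, nothing is read from their count. Together the members took 0.0159% to 0.0176% of a control library and 0.0419% to 0.0479% of a RARαS77A library.

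miR-7706 had 22.9, 28.3 and 22.6 CPM in the controls and 211, 214 and 173 CPM in RARαS77A libraries, from 247 to 416 and from 1440 to 1798 counts. The lowest RARαS77A library was 6.13 times the highest control. The mean went from 24.6 ± 3.22 to 199.5 ± 22.7 CPM (SD, n = 3 each), or 8.12-fold higher. Its log2 fold change was 3.02 (standard error 0.16). By count it moved from ranks 180 to 200 among the miRNAs of a control library to ranks 97 to 105. Its spread between replicates, 13.1% of the mean in controls and 11.4% in RARαS77A libraries, was above the 5.63% and 2.47% that counting alone gives.

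miR-582-3p, the other abundant member, had 80.8, 69.3 and 69.5 CPM in the controls and 271.8, 208 and 219 CPM in RARαS77A libraries, without overlap. The mean went from 73.2 ± 6.54 to 233 ± 33.9 CPM (SD, n = 3 each), or 3.18-fold higher. The log2 fold change of 1.67 (standard error 0.14) was the smallest rise of the 6. Its partner from the same hairpin, miR-582-5p, went the other way, with 23.5, 18.8 and 20.5 CPM in the controls and 16.4, 15.2 and 15.2 CPM in RARαS77A libraries. The groups did not overlap, but their nearest libraries, at 18.8 and 16.4 CPM, were close. The means were 20.9 ± 2.37 and 15.6 ± 0.695 CPM (SD, n = 3 each). At a log2 fold change of -0.42 (standard error 0.17), it was not called by edgeR. The size of this change depended on the scaling and was -0.99 by total counts and -0.20 by upper quartile scaling.

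The members of low abundance rose by nearly equal folds. miR-659-5p had 2.33, 2.38 and 3.20 CPM in the controls and 13.5, 12.9 and 11.8 CPM in RARαS77A libraries, a log2 fold change of 2.27 (standard error 0.20). miR-4661-5p had 2.41, 2.85 and 3.11 CPM against 14.8, 13.2 and 12.4 CPM, also a log2 fold change of 2.27 (standard error 0.19). These values rest on 29 to 42 counts in each control and 98 to 116 in each RARαS77A library, and for both the spread between replicates was close to that of counting alone (for miR-4661-5p, 12.7% against 16.8% in controls). miR-3158-5p had 6.74, 6.87 and 5.76 CPM in the controls and 31.2, 27.1 and 36.2 CPM in RARαS77A libraries, a log2 fold change of 2.29 (standard error 0.19). miR-3158-3p had 7.06, 7.21 and 6.12 CPM against 31.4, 27.1 and 37.3 CPM, a log2 fold change of 2.23 (standard error 0.19). The lowest RARαS77A library was between 3.69 and 3.99 times the highest control for these 4 members, and their standard errors overlap, so no order of rise among them is given.

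The order of the levels changed between the groups. In control cells miR-582-3p was highest, followed by miR-7706 and miR-582-5p, whose ranges overlap, then by the arms of miR-3158, and then by miR-4661-5p and miR-659-5p, whose ranges overlap. In RARαS77A cells miR-7706 had reached the range of miR-582-3p, and miR-582-5p had dropped below the arms of miR-3158 while it stayed above miR-4661-5p and miR-659-5p. Since the mature strands differ by few bases in length, these levels were compared without a length term.

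Among all 506 tested miRNAs the log2 fold change of miR-7706 ranked 2nd, and those of miR-3158-5p, miR-659-5p, miR-4661-5p and miR-3158-3p ranked 7, 8, 10 and 11. miR-582-3p ranked 25 and miR-582-5p 350. Of the 24 miRNAs ranked above miR-582-3p, 5 are members, 10 are others with a mean count of at least 50, and 9 have a mean count under 50. Of the 10 others, miR-3615, miR-151a-3p, miR-3690, miR-589-5p and miR-148a-3p were called higher, with log2 fold changes of 2.65, 2.34, 2.09, 1.90 and 1.76, so the choice of members left out miRNAs that rose as much. The neighbours just inside and outside the lowest rising member were miR-302a-3p at 1.68 (standard error 1.84) and miR-372-3p at 1.63 (standard error 1.93). Both had 0 counts in control replicates 1 and 2, and neither was called.

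**Figure D1:**
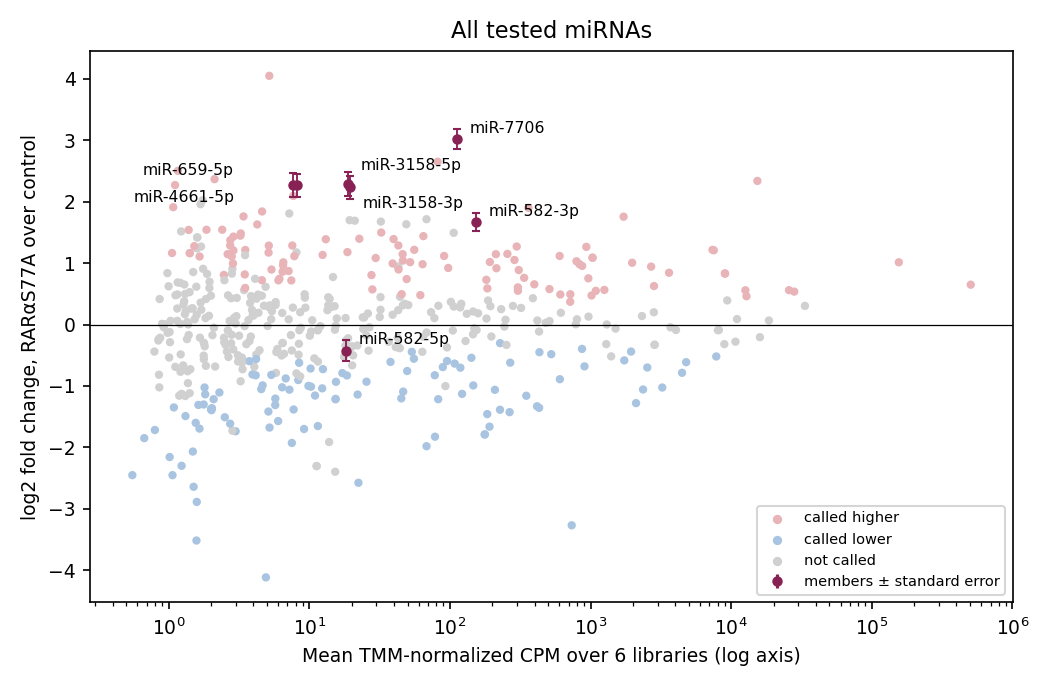
Log2 fold change of RARαS77A over control against mean TMM-normalized CPM (log axis) for the 506 tested miRNAs, in light red where called higher, light blue where called lower and grey where not called, with the 7 members in dark red and bars for the standard error. miR-7706 stands at 3.02, 4 members cluster between 2.23 and 2.29, miR-582-3p stands at 1.67, and miR-582-5p lies among uncalled miRNAs at -0.42.

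Control replicate 3 shares miRNAs with the RARαS77A libraries that the other controls lack, so its place was measured for each member. The log2 scale ran from the mean of control replicates 1 and 2 (0%) to the RARαS77A mean (100%). On it, control replicate 3 lay at -5.78% for miR-7706, -10.8% for miR-3158-5p and -10.1% for miR-3158-3p, below both other controls. It lay at 17.7% for miR-659-5p and 10.1% for miR-4661-5p, above both other controls. For miR-582-3p (-6.51%) and miR-582-5p (9.22%) it lay between the other controls. At 69.5 CPM against 80.8 and 69.3, and 20.5 CPM against 23.5 and 18.8, it was inside their range. A further fit had a term that sets the RARαS77A libraries against control replicate 3. Its log2 fold changes were 3.14, 2.45, 2.38 and 1.75 for miR-7706, miR-3158-5p, miR-3158-3p and miR-582-3p. They were 1.99, 2.11 and -0.39 for miR-659-5p, miR-4661-5p and miR-582-5p. These values rest on 1 control library, and the term reflects a pattern in the counts, not a batch given by the labels.

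The miRNAs whose profile over the 6 libraries was closest to the mean profile of the 6 rising members, by the distance of log2 CPM after centring each miRNA, were miR-151a-3p (0.220), miR-3690 (0.465) and miR-589-5p (0.506). The members themselves lay at distances from 0.271 for miR-4661-5p to 0.991 for miR-7706, so miR-151a-3p was nearer to this mean than any member. Closest to miR-582-5p were miR-1285-3p (0.212), miR-140-5p (0.256) and miR-421 (0.262), which had log2 fold changes of -0.30, -0.37 and -0.34.

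The balance of the arms within a library does not depend on the scaling. It rests on the same counts as the choice of members, and for miR-659 and miR-4661 the arm chosen is the one with reads, so it is described without a test. The measure was the log2 ratio of 3p to 5p counts, with 0.5 added to both. For miR-582 the 3p arm held more reads in 6 of 6 libraries, with a mean log2 ratio of 1.81 ± 0.0629 in controls and 3.89 ± 0.143 in RARαS77A libraries (SD, n = 3 each). For miR-659 and miR-4661 the 5p arm held more in 6 of 6 libraries each, and as the 3p arm was at 0 to 2 counts, the size of the ratio depends on the number added and is not given. For miR-3158 the arms held nearly the same number of reads (mean log2 ratio 0.046), with more on the 3p arm in 5 libraries and a tie in 1.

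For miR-582 the share of the 3p arm was higher in each RARαS77A library than in any control. The 3p arm took 77.5% (95% Wilson interval 75.1 to 79.7), 78.6% (76.3 to 80.8) and 77.3% (74.5 to 79.8) of the miR-582 reads in the controls. In RARαS77A libraries it took 94.3% (93.3 to 95.2), 93.2% (92.0 to 94.2) and 93.5% (92.3 to 94.5). The intervals of the groups are far apart, while within a group they overlap, and they cover counting error only. The ratio of 3p to 5p reads went from 3.51 ± 0.154 to 14.9 ± 1.50 (SD, n = 3 each), a gain of 2.08 on the log2 scale that no scaling of the libraries can change. In reads, the 3p arm had between 761 and 1020 in the controls and between 1750 and 2137 in RARαS77A libraries, and the 5p arm had between 224 and 293 and between 126 and 129. How much of the gain lies with each arm depends on the scaling, and after TMM the 5p arm was at a log2 fold change of -0.42, which was not called. As miR-582-3p was chosen for its rise, the gain is given without a test.

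The other arms of miR-659 and miR-4661 were close to absent. miR-659-3p, an arm known for a binding site in the mRNA of progranulin, had 1 count over the 6 libraries against 411 of miR-659-5p. In RARαS77A libraries its 0 counts allow a share of up to 2.83%, 2.78% and 3.06% of the miR-659 reads. miR-4661-3p had 2, 1 and 1 counts in the controls and 0 in each RARαS77A library, against 436 of miR-4661-5p in all, and its 0 counts allow up to 2.59%, 2.70% and 2.91%. At this depth the other arm's change could not be measured for either. No other arm of miR-7706 is listed.

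The counts of miR-3158-5p and miR-3158-3p cannot be treated as separate measurements. They were 84 and 88, 101 and 106, and 63 and 67 in the controls, and 245 and 247, 228 and 228, and 301 and 310 in RARαS77A libraries. The arms varied together from library to library, including the highest count of both in RARαS77A replicate 3. The 3p arm took at most 51.5% of the reads, and the largest gap was 9 counts. Measured by chi-square for equal counts over the 6 libraries, 0.478, the arms were the 2nd closest of 120 pairs. The closest was miR-486, at 0.338, and the next after miR-3158 was miR-556, at 3.33. Both miR-486 and miR-3158 have precursors that overlap on opposite strands in the annotation, by 64 and 81 bases. Of the 20 names for which the annotation has such precursors overlapping by at least 40 bases, these 2 were the ones with both arms tested. The sources used here do not say how reads were assigned to strands. Some rows of other names repeat each other's counts. miR-203a-3p and miR-203b-5p each had 605, 10 and 78 counts in the controls and 32, 29 and 32 in RARαS77A libraries. Each arm of miR-3158 on 1 strand overlaps the other arm of the opposite strand by 20 bases, as shown above. If strand was not used, reads of 1 arm would also count for the other, which was not tested. The rise of miR-3158 is therefore taken as 1 measurement, uncertain as to arm.

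Read against all precursor names with both arms tested, the 2 pairs lay near opposite ends by the size of the arm difference. For miR-3158 this place is not a result about its arms, because their counts cannot be treated as separate measurements, as described above. As miR-582-3p was chosen for its rise, nothing is read from the place of miR-582 either. The log2 fold change of the 3p arm minus that of the 5p arm was 2.09 for miR-582 and -0.05 for miR-3158. Over the 120 names its size had a median of 0.739 and quartiles of 0.318 and 1.31. Not all of these names bring separate values. The log2 fold changes of miR-423 (1.09 for 5p, -0.33 for 3p) and miR-3184 (-0.33 for 5p, 1.09 for 3p) nearly mirror each other, and both names enter. How many others do so was not counted. miR-582 ranked 6th by size, after miR-181b (-3.23), miR-25 (2.71), miR-194 (2.67), miR-151a (2.50) and miR-224 (-2.19), and miR-3158 was 7th from the smallest. The arms moved in opposite directions in 55 of the 120 pairs, as for miR-582, and were called in opposite directions in 11, to which miR-582 does not belong because its 5p arm was not called.

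The members come from 5 places in the genome (GENCODE 29, GRCh38). MIR7706 is on chromosome 15 (plus strand, 85380596 to 85380662), 25 bases after the start of AKAP13, a kinase anchor protein. It is exonic in all 3 AKAP13 transcripts that span it, in the first exon each time, and overlaps an untranslated region in 2. The other precursors are intronic. MIR659 is on chromosome 22 (minus strand, 37847678 to 37847774), in the intron of an ANKRD54 transcript, 1553 bases from its start. Its nearest miRNA neighbour MIR658, 3307 bases away, had 2 counts in 1 RARαS77A library and 0 in the other 5 libraries. MIR582 lies in introns of 8 transcripts of PDE4D, which degrades cyclic AMP, on the same strand. MIR3158-1 is on the strand of its host DPCD, a gene named for primary ciliary dyskinesia, and MIR3158-2 is antisense to it, in introns of 5 transcripts. MIR4661 is on chromosome 8 (plus strand, 91205485 to 91205559), in introns of 3 transcripts of LRRC69, a leucine-rich repeat gene. No 2 members share a place other than as arms or opposite strands, and host mRNA was not measured in these libraries.

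Wider groups that resemble the members were counted, the members left out, beside the 23.3% called higher and 21.1% called lower among all tested miRNAs. Of 65 other miRNAs with a number of 3000 or above, 23 were called higher (35.4%) and 6 lower (9.23%), with a median log2 fold change of 0.36 against 0.06 over all. Some of these rows nearly repeat the counts of a miRNA with a lower number. In controls miR-3074-5p had 73213, 107044 and 69211 counts beside 73391, 107353 and 69838 of miR-24-3p, and both were called higher. There miR-3065-5p and miR-338-3p each had 326, 292 and 203 counts, and both were called lower. How many of the 65 do so was not counted. Of 162 others with a mean count in the members' range, 29 were called higher (17.9%) and 39 lower (24.1%), with a median of -0.09. Of 223 in an intron of a gene on the same strand, 42 were called higher (18.8%) and 56 lower (25.1%), with a median of -0.05. Of 19 whose precursor lies at least to 50% in a first exon of a coding gene, like that of miR-7706, 10 were called higher (52.6%) and 3 lower (15.8%), with a median of 0.62. These 19 are mature strands, and miR-10a, miR-224, miR-330 and miR-423 enter with both arms. This last group was formed after the place of miR-7706 was seen. None of the groups was tested against the others.

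RARα binds DNA at repeats of letters such as AGGTCA, so these 6 bases were searched on either strand of the 300-base RefSeq promoter windows of the host genes. They were in 0 of 2 windows of AKAP13, 1 of 3 of ANKRD54, 0 of 1 of DPCD and 1 of 8 of PDE4D, and no window was at hand for LRRC69. Of 35116 windows in the table, 13.8% hold them. A match of these letters is not a binding site, and a window without a match does not exclude one.

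The direction of each member held under the 18 other ways of processing tried, while its size depended most on the scaling and the pseudocount. The log2 fold change of miR-7706 lay between 2.11 and 3.23, that of miR-3158-5p between 1.00 and 2.50, that of miR-582-3p between 1.01 and 1.90, and that of miR-582-5p between -0.99 and -0.20. Those of miR-659-5p and miR-4661-5p, with the fewest reads, ranged from 0.63 to 2.48 and from 0.65 to 2.48. The lowest values for the low members came from 10 added to each TPM, which is near or above their own control level. Leaving out any 1 library kept miR-7706 between 2.91 and 3.16 and miR-582-3p between 1.48 and 1.78.

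**Figure D2:**
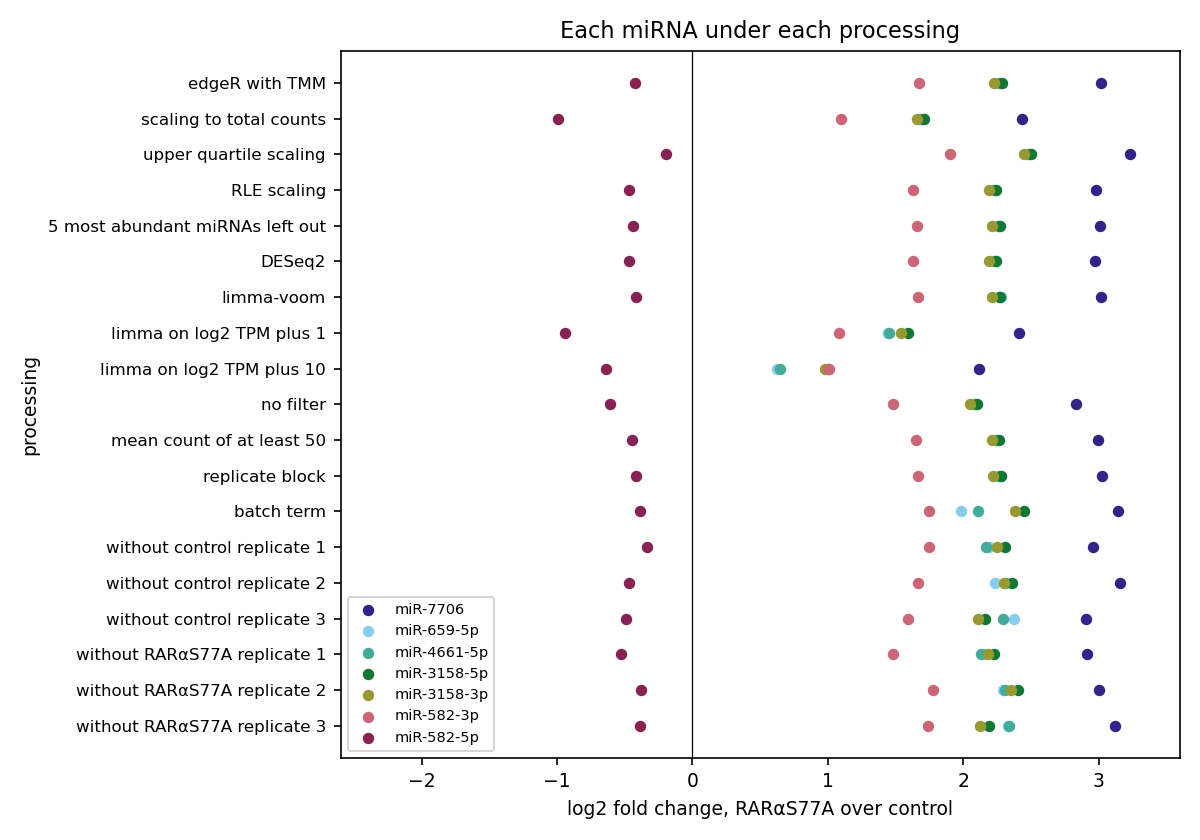
Log2 fold change of RARαS77A over control for each of the 7 miRNAs (colours) under each processing (rows), with edgeR and TMM scaling at the top. All points of the 6 rising miRNAs stay right of 0 and those of miR-582-5p left of it, and total counts and the TPM rows shift every miRNA to the left of its TMM value.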

How the data were processed

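The authors deposited 1 table of 1582 miRNAs with the read count, a whole number without normalization, and a TPM for each of 3 control and 3 RARαS77A libraries of MDA-MB-231 cells. The deposited TPM is the count as a share of its column total, scaled as usual for TPM, without a length term (largest difference 4.74e-05). The libraries were made with the NEBNext small RNA kit. The submitters' processing notes name Bowtie. For the reference, build, strand handling and treatment of reads with several matches, the sources used here give nothing. Reads carry no molecular identifiers, so intervals cover counting error only.

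Counts were fitted with edgeR 4.0.16 (R 4.3.3; TMM, filterByExpr with a minimum count of 10, quasi-likelihood F test, Benjamini-Hochberg adjusted p under 0.05) over 506 miRNAs. Standard errors are the absolute log2 fold change over the square root of F. Alternatives used DESeq2 1.42.0, limma 3.58.1 (voom, and log2 of TPM plus 1 or 10), other scalings and filters, a replicate block, a term that places control replicate 3 with the RARαS77A libraries, and each library left out. The fit was tested on simulated data. Wilson intervals (95%) used scipy 1.17.1, and folding used ViennaRNA 2.7.2. A count of 0 was taken to allow 3 counts. A planned sign-flip test of the arm balance is not reported, because the members were chosen on the same counts.

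The members and lists were chosen with earlier results of these data known. The miRNAs named are the members, their other arms, neighbours in rank and profile, and those that a count singles out, chosen after their values were seen.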

Additional observations from a re-analysis of the deposited data

How the results depend on the processing

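In the order miR-7706, miR-659-5p, miR-4661-5p, miR-3158-5p, miR-3158-3p, miR-582-3p and miR-582-5p, scaling to total counts gave log2 fold changes of 2.44, 1.70, 1.69, 1.71, 1.66, 1.10 and -0.99. In the same order, limma gave 2.41, 1.44, 1.45, 1.59, 1.54, 1.08 and -0.94 on log2 of TPM plus 1, and 2.11, 0.63, 0.65, 1.00, 0.98, 1.01 and -0.64 on TPM plus 10. Total counts move the median of all tested miRNAs from 0.06 to -0.51, a shift that TPM shares by construction. miR-582-5p was also at -0.20 with upper quartile scaling and at -0.61 without a filter, and miR-659-5p at 1.99 with the term for control replicate 3. The cause was not tested for these. Of the members' values, 0 changed sign under these alternatives, and the arm with more reads stayed the same for miR-582, miR-659 and miR-4661.

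Among all miRNAs, 118 higher and 107 lower calls became 51 and 213 with total counts, 55 and 221 with TPM plus 1, 59 and 218 with TPM plus 10, and 76 and 55 with the term for control replicate 3. Without a filter 162 were lower, at an adjusted p under 0.01 62 were lower, and with a log2 fold change of at least 1 in size 69 were higher and 67 lower. With a replicate block, the numbers were 107 and 94, and the members had log2 fold changes of 3.02, 2.28, 2.27, 2.28, 2.22, 1.66 and -0.42. Deviations of same-numbered libraries correlated at 0.0353, 0.103 and 0.0165. The labels do not state whether the replicate numbers pair the libraries, and these values cannot exclude it.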
